A study of Mus musculus with 20 samples.

Results

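The livers of wild-type (WT) mice at the end of the light phase (12 h) were compared with those at its onset (0 h), across the pathways of the liver. The genotype and time in the sample labels put 5 WT mice in each group, which is 10 of the 20 liver arrays of the series, and the other 10 arrays come from *Crem* knock-out (KO) mice taken at the same times. All were untreated mice, 8 weeks old, and of mixed strain, 129Pas x C57Bl/J, with free access to food and lights on at 7 am and off at 7 pm, so that 0 h is 7 am and 12 h is 7 pm. RNA of whole liver, 1 mouse per array, was hybridized to GeneChip Mouse Gene 1.0 ST arrays. Sex is not among the liver labels, and the Y-linked gene *Eif2s3y* was between 9.18 and 10.20 on the log2 scale in all 10 WT mice.

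The time points bracket the resting phase of a nocturnal animal. In liver cells BMAL1 and CLOCK drive transcription of the Period, Cryptochrome and REV-ERB genes, whose proteins in turn hold back BMAL1 and CLOCK or their genes, and the PAR bZIP factors carry this rhythm to metabolic genes. Meals, glucocorticoids, insulin and body temperature act on the same genes. The liver is known for daily rhythms of bile acid and cholesterol metabolism, of lipid and glucose handling, of detoxification and of the folding and secretion of proteins.

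Values are RMA expression on the log2 scale, on which levels of different probe sets are not comparable, so each gene was set against itself. All 12 h arrays carry the label batch 5 and the 0 h arrays the labels batch 1 (mouse 146), batch 2 (mouse 78), batch 3 (mice 80 and 145) and batch 4 (mouse 147), so time and batch cannot be told apart. As a measure of how far batches differ at one time, the largest difference between the means of batches 1 to 4 among the 10 arrays of 0 h was computed for each probe set after removing the mean of each genotype. Its median was 0.205. The array medians were 7.18 to 7.24 at 0 h and 7.07 to 7.15 at 12 h and did not overlap, and differed by -0.087 (p = 0.0079 in an exact two-sided permutation test, which 5 arrays per group cannot bring lower). Correlations between pairs of the 10 WT arrays were 0.969 to 0.993. The liver of mouse 80 stood apart at 0 h with the highest array median. The hepatocyte markers *Alb* and *Ttr* differed by -0.03 and -0.07 and did not pass the test used here, with differences of opposite sign when each array was centred on its median. Of the 7 hepatocyte markers measured, 4 lay above 0 and 3 below. Of these 7, 1 passed, higher at 12 h, and 3 passed, all higher, with each array centred. In whole liver, fewer cells of a type and less RNA per cell cannot be told apart.

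Of 25689 probe sets, 7144 (27.8%) differed between 12 h and 0 h at an adjusted p under 0.05 in limma, and these are said to be called. Higher at 12 h were 3462 (13.5%) and lower 3682 (14.3%). The split depends on the array medians, since with each array centred on its median 5294 (20.6%) were higher and 1995 (7.77%) lower. In 4505 probe sets (17.5%, of which 9.21% higher and 8.33% lower at 12 h) the groups did not overlap, that is, all 5 mice of one time lay above all 5 of the other. Most changes were small, with a median of 0.40 among those called higher and -0.35 among those called lower, and 208 probe sets (0.81%) were called with a change of at least 1, of which 140 rose and 68 fell. The median over all probe sets was -0.03. For lists of genes, 1 probe set stood for each of 19661 genes. Of these genes 28.8% were called, 14.0% higher and 14.7% lower, which is the background for the counts of list members given here.

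Among the lists with at least 10 measured genes, the repressors of the clock had the greatest share of calls. Of 10 measured, 9 were higher at 12 h and 0 lower, with a median log2 change of 1.33 against -0.03 for all genes. *Per1*, a Period gene, was at 6.72, 6.77, 6.97, 7.17 and 7.20 in the mice of 0 h and at 8.78, 8.86, 8.90, 8.97 and 9.41 in those of 12 h. Every 12 h mouse lay above every 0 h mouse, and the means of 6.97 ± 0.22 and 8.99 ± 0.25 (SD, n = 5) differ 4.06-fold (adjusted p = 7.7e-10). *Per3* was at 6.81, 6.81, 6.85, 6.86 and 7.03 at 0 h and at 8.65, 8.87, 8.90, 8.96 and 9.15 at 12 h, a change of 2.03 (adjusted p = 2.4e-12), again with no overlap. *Per2* rose less, by 1.29 (standard error 0.13, adjusted p = 3.5e-07), from 7.87 ± 0.14 to 9.16 ± 0.28 (SD, n = 5).

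Among the REV-ERB genes, which encode nuclear receptors that repress transcription through ROR elements, *Nr1d2* was at 7.23, 7.37, 7.54, 7.63 and 8.05 at 0 h and at 10.04, 10.12, 10.12, 10.15 and 10.35 at 12 h. This is a 6.01-fold rise (adjusted p = 1.0e-12) with groups far apart. *Nr1d1* was at 7.57, 7.95, 8.001, 8.30 and 8.81 and at 9.05, 9.27, 9.47, 9.78 and 9.96, respectively, and rose by 1.38 (adjusted p = 6.2e-05), the lowest mouse at 12 h being only just above the highest at 0 h. *Ciart*, which encodes a repressor of BMAL1 and CLOCK, has 2 probe sets, with changes of 3.88 and 3.06, the first being the largest rise of any probe set. On the second, brighter probe set the 0 h mice were at 6.01, 6.22, 6.63, 6.72 and 6.94 and the 12 h mice at 8.94, 9.34, 9.35, 10.08 and 10.11, with no overlap (adjusted p = 8.6e-10). Of the Cryptochromes, *Cry2* rose by 1.09 (adjusted p = 3.2e-08), whereas *Cry1* was at 8.78, 8.79, 8.82, 9.27 and 9.29 at 0 h and at 8.42, 8.63, 8.67, 9.06 and 9.08 at 12 h, which overlap, and its difference of -0.21 did not pass (adjusted p = 0.24). The bHLH repressors *Bhlhe40* and *Bhlhe41* rose by 1.22 and 1.07. All 9 changes called exceeded the same probe set's largest difference between batches at 0 h. For *Per3* the values were 2.03 against 0.18 and for *Nr1d2* 2.59 against 0.46. The same held for 92.4% of all probe sets called higher and for 41.6% of all genes.

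Of the activators, *Arntl*, which encodes BMAL1, was at 9.27, 9.47, 9.51, 9.52 and 9.63 at 0 h and at 6.56, 6.86, 7.12, 7.83 and 8.32 at 12 h. No 12 h mouse reached the level of a 0 h mouse, although the 12 h mice spread widely (7.34 ± 0.72 against 9.48 ± 0.13, SD, n = 5), and *Arntl* fell by 2.14 (adjusted p = 2.1e-07). *Clock* was at 8.70, 9.72, 9.74, 9.96 and 10.01 at 0 h and at 8.94, 8.98, 9.03, 9.35 and 9.62 at 12 h. The lowest of its 0 h values belonged to mouse 80, and its difference of -0.44 did not pass (adjusted p = 0.078). It passed without mouse 80 (-0.68) and without mouse 168 (-0.55). Of 4 activators and ROR genes measured, 2 were lower, *Arntl* and *Rorb* at -0.37, the latter of which was not called when any of mice 80, 169 or 170 was left out (changes of -0.32 to -0.26 then). *Rora* at 0.31 did not pass.

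All 4 genes of the PAR bZIP group were called. *Dbp*, the D-box binding activator, was at 7.56, 7.72, 7.84, 7.89 and 8.28 at 0 h and at 9.90, 10.24, 10.99, 11.005 and 11.13 at 12 h, a 6.95-fold rise (adjusted p = 4.2e-09). *Tef*, a related activator, rose by 1.70 (from 8.49 ± 0.09 to 10.19 ± 0.15, SD, n = 5, adjusted p = 2.2e-12) and *Hlf* by 0.50 (adjusted p = 0.0012). *Nfil3*, which encodes the repressor that binds the same D-box, was at 9.97, 10.14, 10.23, 10.40 and 10.66 at 0 h and at 8.60, 8.64, 8.67, 9.01 and 9.12 at 12 h and fell by 1.47 (adjusted p = 1.5e-07). The groups of each of these genes did not overlap, and the activators and the repressor of the D-box were thus called in opposite directions. Of 11 genes of kinases, ubiquitin ligases and other proteins that act on clock proteins, 5 were higher and 0 lower (3 higher without mouse 170). They include *Usp2*, a deubiquitinase, at 2.46, the ligase subunit *Fbxw11* at 0.45 and the AMP-activated kinase subunit *Prkaa2* at 0.42.

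**Figure D1:**
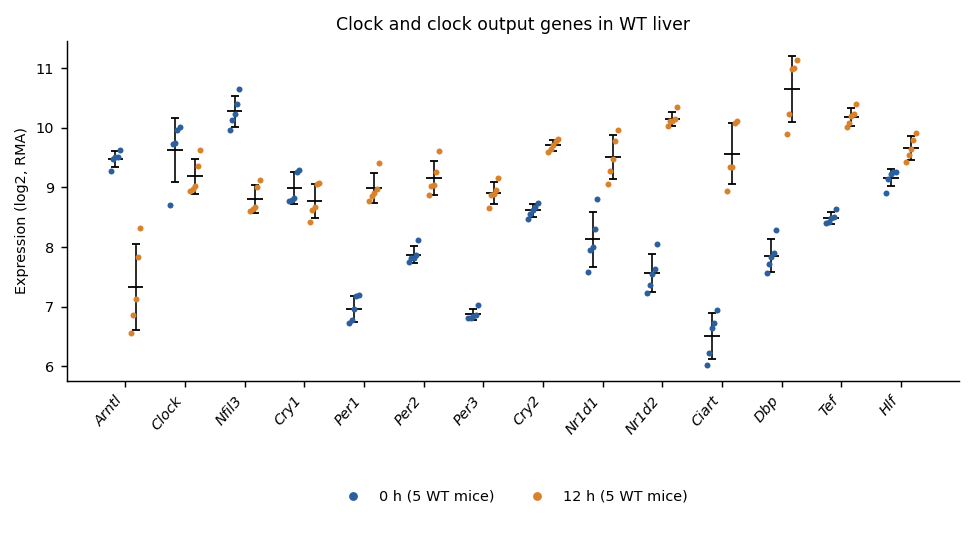
Log2 RMA expression (vertical axis, which does not start at 0) of 14 clock and clock output genes in WT liver at 0 h (blue) and 12 h (orange). Points are single mice (5 per group), ordered by level, and bars show means with SD. All genes but *Clock* and *Cry1* are separated in every mouse, with *Arntl* and *Nfil3* lower and the others higher at 12 h.

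Because clock factors bind short DNA motifs, the stretches before the starts of the 6 clock and output genes with the largest changes among those holding a searched motif are shown, 5′ to 3′ on the strand of the gene, from RefSeq on GRCm38.p6. Capitals mark the motif. They are the E-box CACGTG in *Ciart*, *Per1* and *Tef*, the D-box TTANGTAA in *Per3* and the ROR element ANTNGGTCA in *Arntl* and *Nfil3*, each searched on both strands, and no 2 of the matches shown overlap. For *Arntl*, whose match lies 28 bases after the start, only the surrounding 30 bases are given.
*Ciart* (chr3:95882229-95882478, minus strand): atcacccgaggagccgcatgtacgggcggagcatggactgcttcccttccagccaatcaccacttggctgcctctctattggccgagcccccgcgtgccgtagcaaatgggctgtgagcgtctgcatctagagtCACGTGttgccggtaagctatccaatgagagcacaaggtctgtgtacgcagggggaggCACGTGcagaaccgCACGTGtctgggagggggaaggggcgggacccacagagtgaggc
*Arntl* (chr7:113207528-113207557, plus strand): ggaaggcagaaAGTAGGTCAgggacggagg
*Per3* (chr4:151044666-151044915, minus strand): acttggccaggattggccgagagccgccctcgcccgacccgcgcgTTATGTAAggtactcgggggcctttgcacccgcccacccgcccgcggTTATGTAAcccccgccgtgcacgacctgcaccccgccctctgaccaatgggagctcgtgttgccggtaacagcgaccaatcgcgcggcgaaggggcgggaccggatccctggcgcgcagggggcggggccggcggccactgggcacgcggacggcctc
*Per1* (chr11:69098699-69098948, plus strand): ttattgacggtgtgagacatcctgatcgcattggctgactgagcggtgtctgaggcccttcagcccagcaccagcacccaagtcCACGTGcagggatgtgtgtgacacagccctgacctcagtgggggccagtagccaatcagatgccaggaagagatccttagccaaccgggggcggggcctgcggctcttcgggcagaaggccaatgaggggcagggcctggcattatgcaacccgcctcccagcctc
*Tef* (chr15:81802423-81802672, plus strand): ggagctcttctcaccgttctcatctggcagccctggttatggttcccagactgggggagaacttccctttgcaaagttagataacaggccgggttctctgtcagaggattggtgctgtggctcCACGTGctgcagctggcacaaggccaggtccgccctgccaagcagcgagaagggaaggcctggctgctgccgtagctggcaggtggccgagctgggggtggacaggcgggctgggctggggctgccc
*Nfil3* (chr13:52981040-52981289, minus strand): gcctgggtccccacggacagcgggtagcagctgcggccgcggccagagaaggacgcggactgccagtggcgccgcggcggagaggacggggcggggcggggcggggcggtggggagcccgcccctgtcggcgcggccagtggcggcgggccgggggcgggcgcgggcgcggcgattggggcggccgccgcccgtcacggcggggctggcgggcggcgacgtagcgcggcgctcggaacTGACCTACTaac

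*Ciart*, with the largest change, holds 3 E-boxes, 116, 58 and 44 bases before its start, and *Per3* holds 2 D-boxes, 205 and 158 bases before its start. The E-box of *Per1* lies 166 bases before the start and that of the *Tef* start shown 127 bases before it. *Tef* has 2 starts in the table, and the other has an E-box 138 bases before it. *Arntl* and *Per1* also have 2 starts each, of which only 1 holds a searched motif. The ROR element of *Nfil3* is on the opposite strand, 12 bases before the start. An E-box was found in 7.15% of all 32851 promoters of the table (250 bases before to 50 after a start), in 9.47% of the 15401 measured genes that have a promoter there, in 18 of the 80 such genes (22.5%) called higher by at least 1 and in 3 of the 38 (7.89%) called lower by at least 1. The D-box was in 2.32% of all promoters, in 5 of the 80 genes and in 0 of the 38, and the ROR element in 2.24% of all promoters, in 2 of the 80 and in 3 of the 38. These matches are descriptions of sequence and no test was made of them.

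Beyond the clock, the largest rises included *Lpin1*, *Rgs16*, *Mfsd2a*, *Wee1*, *Nrg4* and 2 genes of the *Cyp4a* family. *Lpin1*, which encodes a phosphatidate phosphatase of triglyceride synthesis and a coactivator, was at 8.66, 8.69, 8.87, 9.11 and 9.36 at 0 h and at 11.49, 11.80, 12.08, 12.321 and 12.45 at 12 h. The groups were apart by more than the whole range of either, an 8.51-fold rise (adjusted p = 7.6e-10). *Rgs16*, a regulator of G protein signalling, rose by 2.97, *Mfsd2a*, a transporter of lysophosphatidylcholine, by 2.64, and *Nrg4*, a ligand of the epidermal growth factor family, by 2.31. *Wee1*, the kinase that holds back entry into mitosis, was at 7.58, 7.67, 7.72, 7.74 and 7.93 and at 10.18, 10.18, 10.25, 10.34 and 10.35, a 5.79-fold rise without overlap (adjusted p = 1.0e-12).

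The largest falls were led by *Tubb2a*, a beta-tubulin, which was at 9.52, 9.80, 9.81, 10.05 and 10.13 at 0 h and at 6.65, 7.07, 7.13, 7.14 and 7.46 at 12 h. Every 12 h mouse was far below the lowest 0 h mouse, and the level at 0 h was 6.84-fold that at 12 h (adjusted p = 8.6e-10). *Elovl3*, an elongase of very long chain fatty acids, was at 12.30, 12.88, 12.91, 13.03 and 13.17 and at 9.74, 9.85, 10.65, 11.12 and 11.13, and fell by 2.36 (adjusted p = 2.6e-06) with a wide spread at 12 h. *Dhrs9*, a dehydrogenase of retinoids and steroids, fell by 1.75 and *Avpr1a*, the vasopressin receptor of hepatocytes, by 1.61. The fall of *Loxl4*, a lysyl oxidase family member, was the smallest of those named here, at 1.26. *Leap2*, which encodes a secreted peptide that antagonizes the ghrelin receptor, fell by 1.58, the tight junction gene *Cldn1* by 1.46, the choline kinase gene *Chka* by 1.44, and *Clpx*, of a mitochondrial protease, by 1.38.

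Genes that answer to the nuclear receptor PPAR alpha gave more calls higher than lower. Of 18 targets measured, 8 were higher and 1 lower, with a median of 0.50. The omega-hydroxylase gene *Cyp4a10* was at 7.68, 7.87, 7.89, 8.58 and 8.77 at 0 h and at 9.13, 9.85, 10.02, 10.12 and 10.99 at 12 h, a 3.64-fold rise with no overlap (adjusted p = 0.00048). *Cyp4a31* rose by 2.46. *Cyp4a14* was at 6.50, 6.55, 6.57, 7.12 and 7.68 and at 8.01, 8.38, 8.995, 9.04 and 11.87. The highest value belonged to mouse 170, and the rise of 2.37 became 1.72 without that mouse and was still called. *Cyp4a* genes are close paralogs, whose transcripts may reach each other's probes. The acyl-CoA thioesterase genes *Acot4* and *Acot3* rose by 1.68 and 1.08, and *Angptl4*, an inhibitor of lipoprotein lipase, by 1.03. *Cpt1a*, the carnitine palmitoyltransferase that controls entry of fatty acids into mitochondria, was at 11.13, 11.14, 11.22, 11.24 and 11.50 and at 11.91, 11.99, 12.004, 12.16 and 12.309 and rose by 0.83 (adjusted p = 1.1e-06) without overlap. *Vnn1* at 0.96 and the hormone gene *Fgf21* at -0.42 did not pass.

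A single target was called lower. *Pdk4*, which encodes a kinase that shuts off pyruvate dehydrogenase, was at 7.92, 8.11, 8.54, 8.57 and 9.003 at 0 h and at 7.10, 7.14, 7.33, 7.48 and 7.57 at 12 h and fell by 1.10 (adjusted p = 5.1e-05), with no overlap. *Ppara* itself rose by 0.83 (adjusted p = 4.8e-06), as did the coactivator genes *Ppargc1a* by 0.85 and *Ppargc1b* by 0.55 and the partner receptor *Rxra* by 0.49, whereas *Ppard* fell by 0.80. Of the 11 receptors and partners measured, 6 were higher and 1 lower. Enzymes of beta-oxidation were called in both directions, 29.4% of the mitochondrial and 41.7% of the peroxisomal ones, beside 28.8% of all genes. In mitochondria 4 of 17 were higher and 1 lower, with the dehydrogenase *Acadl* at 0.38. In peroxisomes 2 of 12 were higher and 3 lower (4 and 1 with each array centred on its median), among them the transporter *Abcd3* at 0.41 and the carnitine acyltransferases *Crot* at -0.74 and *Crat* at -0.37. Of 4 ketogenesis genes measured, the monocarboxylate transporter *Slc16a7* rose by 0.81 and its relative *Slc16a1* fell by 0.84.

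In fatty acid synthesis 5 of 12 genes were higher and 0 lower, and 3 were higher without mouse 146 or without mouse 170. The transcription factor gene *Srebf1* rose by 0.65, the elongase *Elovl6* by 0.76 and the lipogenic regulator *Thrsp* by 0.90. *Fasn*, the fatty acid synthase, was higher by 0.49 (adjusted p = 0.034) and was not called when any of mice 78, 80, 145, 146, 167 or 170 was left out (changes of 0.42 to 0.48 then). *Acaca*, the acetyl-CoA carboxylase, was higher by 0.54 and was not called when any of mice 146 or 170 was left out (changes of 0.47 to 0.50 then). Besides *Elovl3*, elongation and desaturation genes moved in both directions, with the desaturases *Fads1* and *Fads2* higher by 0.55 and 0.33 and *Elovl5* at -0.38. In triglyceride synthesis and lipid droplets 8 of 19 genes were higher and 4 lower. *Lpin2* rose by 1.34 and the last enzyme of the pathway, *Dgat2*, by 0.61. The main triglyceride lipase *Pnpla2* was at 8.44, 8.47, 8.63, 8.76 and 8.82 at 0 h and at 9.53, 9.53, 9.54, 9.70 and 9.93 at 12 h, a 2.04-fold rise without overlap (adjusted p = 8.9e-08), whereas the droplet coat gene *Plin2* fell by 0.74 and *Abhd5*, the coactivator of that lipase, by 0.31. *Lipg*, an endothelial lipase, rose by 1.59, the largest change among 16 lipoprotein genes, of which 3 were higher and 4 lower. In phosphatidylcholine synthesis the first enzyme *Chka* was lower and the second, *Pcyt1a*, higher by 0.62.

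In cholesterol synthesis 31.25% of the enzymes were called, close to the 28.8% of all genes. Of 16 enzymes 4 were lower and 1 higher, with a median of -0.23. With each array centred, 3 were lower and 1 higher, with a median of -0.14. *Pmvk* fell by 0.66, *Mvd* by 0.60, *Fdps* by 0.41 and *Ebp* by 0.24, whereas *Hmgcs1* at -0.62 and *Sqle* at -0.29 did not pass. Without mouse 167 at 12 h, 8 were lower and 0 higher, and without mice 80 and 170, 3 were lower and 0 higher. *Insig2*, which encodes a protein that retains the SREBP complex in the endoplasmic reticulum, was at 12.26, 12.399, 12.52, 12.61 and 12.80 at 0 h and at 10.89, 11.13, 11.29, 11.47 and 11.66 at 12 h. All 12 h mice lay below all 0 h mice, and it fell by 1.23 (adjusted p = 1.0e-05), while *Insig1* at -0.20 did not pass. *Npc1*, which exports cholesterol from lysosomes, rose by 0.84.

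*Cyp7a1*, the rate-limiting enzyme of bile acid synthesis, was at 10.73, 11.14, 11.53, 11.72 and 12.11 at 0 h and at 12.342, 12.57, 12.62, 12.66 and 12.73 at 12 h. Its 12 h values lay in a narrow range above all 0 h values, a 2.21-fold rise (adjusted p = 0.0014). It was the only gene of the pathway called higher. Of the 15 enzymes 4 fell, *Hsd3b7* by 0.44, the conjugating enzyme *Baat* by 0.41, *Acox2* by 0.31 and *Scp2* by 0.28. *Cyp8b1* at -0.41 and *Cyp7b1* at -0.66 did not pass. Among regulators the bile acid receptor gene *Nr1h4* rose by 0.37 and the repressor *Mafg* by 0.76, and *Nr0b2*, which encodes the repressor SHP, stood at -0.26 and did not pass. Both transporters that together pump sterols into bile rose together, *Abcg5* by 1.32 and *Abcg8* by 1.01, as did the uptake carrier *Slco1a4* by 1.39 and the export pumps *Abcc3* by 0.71 and *Abcc2* by 0.49. The bile salt export pump *Abcb11* fell by 0.36 and both subunits of the basolateral exporter, *Slc51a* and *Slc51b*, by 0.34 and 0.50. Of 18 transporters 8 were higher and 3 lower.

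Among genes for making glucose and for breaking it down, calls were mostly higher. In gluconeogenesis 4 of 11 were higher and 1 lower. *Pck1*, the phosphoenolpyruvate carboxykinase of the pathway, was at 11.43, 11.59, 11.73, 12.14 and 12.316 at 0 h and at 12.90, 12.999, 13.18, 13.19 and 13.23 at 12 h, a 2.39-fold rise without overlap (adjusted p = 2.7e-05). The glucose 6-phosphate transporter *Slc37a4* rose by 0.76, the aminotransferase *Got1* by 0.93 and pyruvate carboxylase *Pcx* by 0.46, while *G6pc* at 0.10 did not pass. Among genes of glucose uptake and glycolysis 8 of 10 were higher and 0 lower (5 higher without mouse 170), with a median of 0.38. *Pfkfb3*, which makes the activator of phosphofructokinase, was at 7.18, 7.63, 7.65, 8.01 and 8.08 and at 8.98, 9.35, 9.51, 9.76 and 9.93, a 3.48-fold rise without overlap (adjusted p = 1.8e-06). The glucose transporter *Slc2a2* rose by 0.56, liver pyruvate kinase *Pklr* by 0.51 and the pyruvate dehydrogenase kinases *Pdk1* and *Pdk2* by 0.66 and 0.90, opposite to *Pdk4*. Of 16 glycogen genes 5 were higher and 2 lower (3 higher without mouse 78 or without mouse 80). Glycogen synthase *Gys2* rose by 0.68, whereas the phosphatase targeting subunit *Ppp1r3c*, at 10.30, 10.37, 11.16, 11.33 and 11.38 and at 8.98, 9.42, 9.98, 10.50 and 10.61, fell by 1.01 (adjusted p = 0.014) with groups that overlap, and the phosphorylase *Pygl* by 0.27.

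In insulin signalling *Foxo1*, a transcription factor that insulin keeps out of the nucleus, was at 8.82, 8.86, 8.97, 9.02 and 9.04 at 0 h and at 9.96, 10.003, 10.26, 10.28 and 10.44 at 12 h, a 2.37-fold rise without overlap (adjusted p = 3.3e-09). *Foxo3* rose by 0.61, *Pik3r1*, the regulatory subunit of PI3 kinase, by 0.56, and *Akt1* and *Akt2* by 0.40 and 0.51. *Irs2*, an insulin receptor substrate, differed by -0.41 (adjusted p = 0.037) and was not called when any of mice 145, 146, 147, 167, 168 or 170 was left out (changes of -0.42 to -0.32 then). *Igf1* at 0.18 and *Igfbp1* at 0.51 did not pass. Of 22 genes of this axis 6 were higher and 2 lower.

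Genes that glucocorticoids and the feeding state control formed another group with many calls, 14 of 21 higher and 2 lower, with a median of 0.51. *Fkbp5*, a chaperone of the glucocorticoid receptor, was at 8.08, 8.28, 8.42, 8.68 and 9.06 at 0 h and at 9.9996, 10.16, 11.05, 11.32 and 11.34 at 12 h, a 4.82-fold rise without overlap (adjusted p = 3.9e-07). The metallothionein gene *Mt1* was at 8.51, 8.51, 9.13, 9.34 and 9.37 and at 9.81, 10.13, 11.27, 11.28 and 12.07 and rose by 1.94 (adjusted p = 0.00090), with a wide spread among the 12 h mice, and *Mt2* rose by 1.97. The zinc finger gene *Zbtb16* rose by 1.75, the Krüppel-like factors *Klf15*, *Klf9* and *Klf10* by 0.81, 0.74 and 0.62, *Cebpb* by 0.78 and *Tsc22d3*, which encodes GILZ, by 0.59. *Sgk2*, a kinase gene, fell by 1.04 and *Hsd11b1*, whose enzyme regenerates active glucocorticoid, by 0.53. Without mice 80 and 170, 10 were higher and 2 lower. Immediate early genes showed fewer calls. Of 23 only 2 were higher, the phosphatase gene *Dusp1* by 1.16 and the mRNA decay factor *Zfp36* by 0.81, and 3 were lower, *Btg1* by 0.64, *Fos* by 0.53 and *Fosb* by 0.26. In the CREB family *Crem* differed by -0.35 (adjusted p = 0.027), a fall that was not called when any of mice 145, 146, 168 or 170 was left out (changes of -0.34 to -0.30 then). The coactivator *Crtc3* fell by 0.62, whereas *Crtc2* rose by 0.38 and the glucagon receptor *Gcgr* by 0.33.

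**Figure D2:**
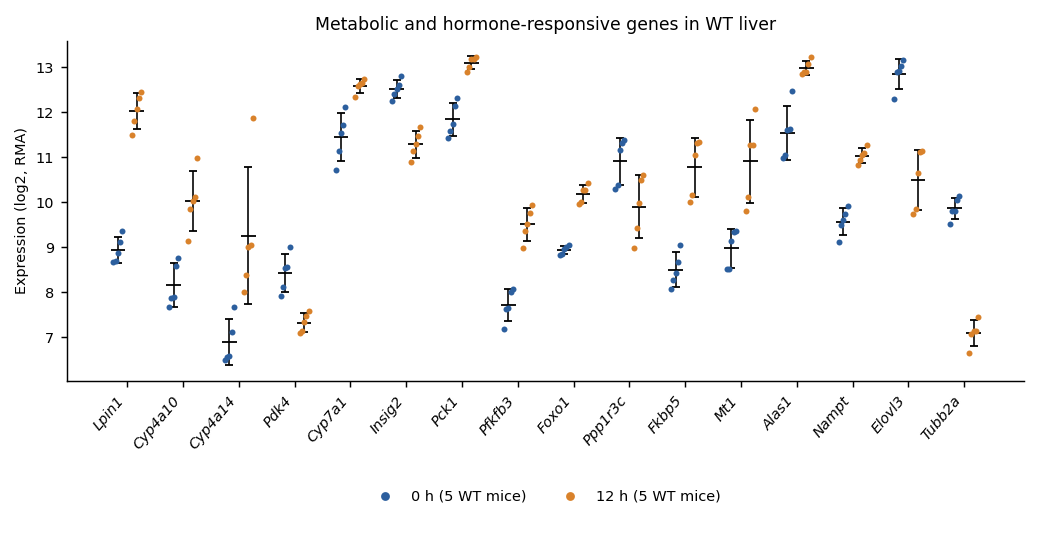
Log2 RMA expression (vertical axis, which does not start at 0) of 16 metabolic and hormone-responsive genes in WT liver at 0 h (blue) and 12 h (orange). Points are single mice (5 per group), ordered by level, and bars show means with SD. *Pdk4*, *Insig2*, *Ppp1r3c*, *Elovl3* and *Tubb2a* are lower and the others higher at 12 h, and 1 mouse at 12 h lies at 11.87 in *Cyp4a14*.

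Among genes of amino acid handling, more calls were higher than lower. Of 16 transporters 10 were higher and 2 lower, with a median of 0.34. The cationic transporter *Slc7a2* was at 10.79, 10.89, 10.95, 10.96 and 11.14 at 0 h and at 11.86, 12.13, 12.16, 12.309 and 12.4001 at 12 h, a rise of 1.23 without overlap (adjusted p = 2.0e-08). The neutral carriers *Slc38a2* and *Slc43a1* rose by 1.16 and 1.14, and *Slc3a1* and *Slc1a4* fell by 0.84 and 0.51. Of 28 enzymes of amino acid breakdown 10 were higher and 0 lower, led by the aminotransferases *Got1* at 0.93 and *Gpt2* at 0.79 and by proline dehydrogenase *Prodh* at 0.59. Their share of calls was 35.7%, beside 28.8% of all genes. The median of these enzymes was 0.11 in WT liver and -0.05 in KO liver. In the urea cycle 3 of 10 were higher, with argininosuccinate lyase *Asl* at 0.40, and 1 lower, *Otc* at -0.31.

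*Nampt*, the rate-limiting enzyme of NAD salvage, was at 9.11, 9.49, 9.61, 9.73 and 9.91 at 0 h and at 10.82, 10.94, 11.04, 11.09 and 11.27 at 12 h. The groups were apart, and the rise was 2.75-fold (adjusted p = 1.6e-08). *Nmrk1*, a kinase that makes NAD from nicotinamide riboside, rose by 1.26 and the NAD-dependent deacetylase *Sirt1* by 0.54. Of 20 genes of NAD synthesis and sirtuins 7 were higher and 1 lower. *Alas1*, the rate-limiting enzyme of heme synthesis in liver, was at 10.97, 11.05, 11.60, 11.62 and 12.47 and at 12.85, 12.89, 12.90, 13.07 and 13.22, a 2.72-fold rise without overlap (adjusted p = 5.4e-05). Downstream of it *Urod* fell by 0.45, and the heme oxygenase gene *Hmox1* fell by 0.63.

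Of 10 sensors of foreign compounds and redox partners measured, 5 were higher and 0 lower. The constitutive androstane receptor *Nr1i3* was at 10.56, 10.64, 10.88, 10.97 and 11.04 at 0 h and at 11.58, 11.61, 11.69, 11.75 and 11.89 at 12 h and rose by 0.88 (adjusted p = 2.3e-05) without overlap. The pregnane X receptor *Nr1i2* rose by 0.56, the aryl hydrocarbon receptor *Ahr* by 0.54 and its partner *Arnt* by 0.44. Their target families were mixed. Among cytochrome P450, flavin monooxygenase and carboxylesterase genes 12 of 46 were higher and 7 lower, with *Fmo2* at 2.21, *Cyp2a22* at 0.98 and *Cyp2d40* at -1.16, while *Cyp3a11* at -0.33 and *Cyp2b10* at 0.79 did not pass. Among conjugating enzymes 4 of 38 were higher, such as the sulfotransferase *Sult1d1* at 0.78, and 9 lower, among them *Gstp1* at -0.40 and *Gstm5* at -0.45, but with each array centred 7 were higher and 5 lower. These families hold many close paralogs. Of 12 genes of glutathione and NRF2, the rate-limiting *Gclc* fell by 0.53 and *Gpx1* by 0.36, and 1 was higher (3 without mouse 78, and 3 with each array centred).

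Where genes of protein folding were called, they were lower at 12 h. Of 19 heat shock genes 9 were lower and 0 higher, with a median of -0.26 (5 lower without mouse 167). With each array centred, 4 were lower and 1 higher, and in KO liver the median of the list was -0.03. *Hsph1*, a nucleotide exchange factor of HSP70, was at 10.57, 10.67, 10.68, 10.80 and 11.01 at 0 h and at 9.59, 10.04, 10.05, 10.12 and 10.14 at 12 h and fell by 0.76 (adjusted p = 0.00068), with no overlap. The inducible HSP70 gene *Hspa1a* fell by 0.61, the cochaperones *Stip1*, *Ahsa1* and *Bag3* by 0.56, 0.39 and 0.36, and the constitutive *Hspa8* at 0.13 did not pass. The cold-inducible RNA-binding gene *Cirbp* rose by 0.38 (adjusted p = 0.0082). The heat shock element GAANNTTC was found in the promoters of 9 of 18 heat shock genes that have a promoter in the table, against 7.88% of all measured genes.

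In the endoplasmic reticulum 16 of 34 genes of the unfolded protein response were lower and 0 higher, with a median of -0.20, and leaving out mice 80 and 170 also left 16 lower. *Sdf2l1*, of a chaperone complex, was at 10.25, 10.54, 10.76, 10.88 and 10.93 at 0 h and at 9.38, 9.62, 9.67, 9.78 and 10.02 at 12 h and fell by 0.98 (adjusted p = 0.00022). The main chaperone *Hspa5*, or BiP, was at 12.77, 12.83, 12.90, 12.98 and 13.02 and at 12.22, 12.25, 12.29, 12.329 and 12.43 and fell by 0.59 (adjusted p = 2.4e-05). Neither gene had overlapping groups. *Creld2* fell by 0.92, *Manf* by 0.78, the ubiquitin ligase *Syvn1* by 0.84 and the transcription factor gene *Ddit3*, or CHOP, by 0.70. The regulator *Xbp1* at -0.17 did not pass. Of 35 genes of the machinery of secretion 5 were higher, among them the coat genes *Sec24a* at 0.46 and *Sec31a* at 0.43, and 4 lower (7 lower without mouse 146). With quantile normalization 6 were higher and 9 lower.

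Subunits of large complexes gave many calls, nearly all lower. Of 57 genes of the respiratory chain and ATP synthase 33 were lower and 1 higher, with a median of -0.25. *Ndufb10*, of complex I, was at 9.49, 9.57, 9.77, 9.84 and 9.96 at 0 h and at 8.61, 8.61, 8.62, 8.63 and 8.82 at 12 h and fell by 1.07 (adjusted p = 2.8e-07). *Uqcrh*, of complex III, fell by 1.03 and *Cox6a1*, of complex IV, by 0.95. In the proteasome 21 of 32 were lower and 1 higher, with a median of -0.29. *Psma2*, a core subunit, was at 10.79, 10.87, 10.89, 10.92 and 11.09 and at 9.97, 10.04, 10.07, 10.09 and 10.22 and fell by 0.83 (adjusted p = 7.9e-08), *Psmd4* fell by 0.83 and the activator gene *Psme4* rose by 0.30. The groups of *Ndufb10* and *Psma2* did not overlap.

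Of the mitochondrial ribosome 14 of 38 genes were lower and 0 higher (median -0.16), with *Mrpl13* and *Mrpl27* at -0.74 and -0.74. Of cytosolic ribosomal proteins 14 of 22 were lower and 0 higher (median -0.34), with *Rps3a1* at -1.66 and *Rpl26* at -1.37. These genes have many near-identical pseudogene copies, so that their probe sets are uncertain, and the other 56 genes of that list were not analysed here. Of the factors that build ribosomes 11 of 39 were higher, such as the RNA polymerase I subunits *Polr1b* at 0.53 and *Polr1a* at 0.45, and 4 lower (2 lower without mouse 80). Of 12 enzymes of the citric acid cycle 3 were higher, *Ogdh* at 0.42, *Dlst* at 0.38 and *Idh2* at 0.33, and 0 lower.

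The lower array medians at 12 h bear on these groups of small changes. With each array centred on its median, 28 genes of the respiratory chain were lower and 5 higher, 17 of the proteasome lower and 2 higher, 13 of the unfolded protein response lower and 2 higher, and 12 of the mitochondrial ribosome lower and 2 higher. Of cytosolic ribosomal proteins 9 were then lower and 1 higher, and of heat shock genes 4 lower and 1 higher. Centring turned the balance of calls from lower to higher in 7 of 74 lists, those of peroxisomal oxidation, conjugating enzymes, immediate early genes, glutathione and NRF2, translation factors, plasma carriers, and mesothelium or gallbladder, and quantile normalization from higher to lower in 2, the secretion machinery and the stellate cell and fibroblast markers. The share of calls also moved with the level of a probe set. Of the third of probe sets in the middle of the range (mean level 6.45 to 8.07) 7.60% were higher and 19.4% lower, and of the brightest (8.07 to 14.5) 27.7% were higher and 17.4% lower. Its part in these results was not tested.

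**Figure D3:**
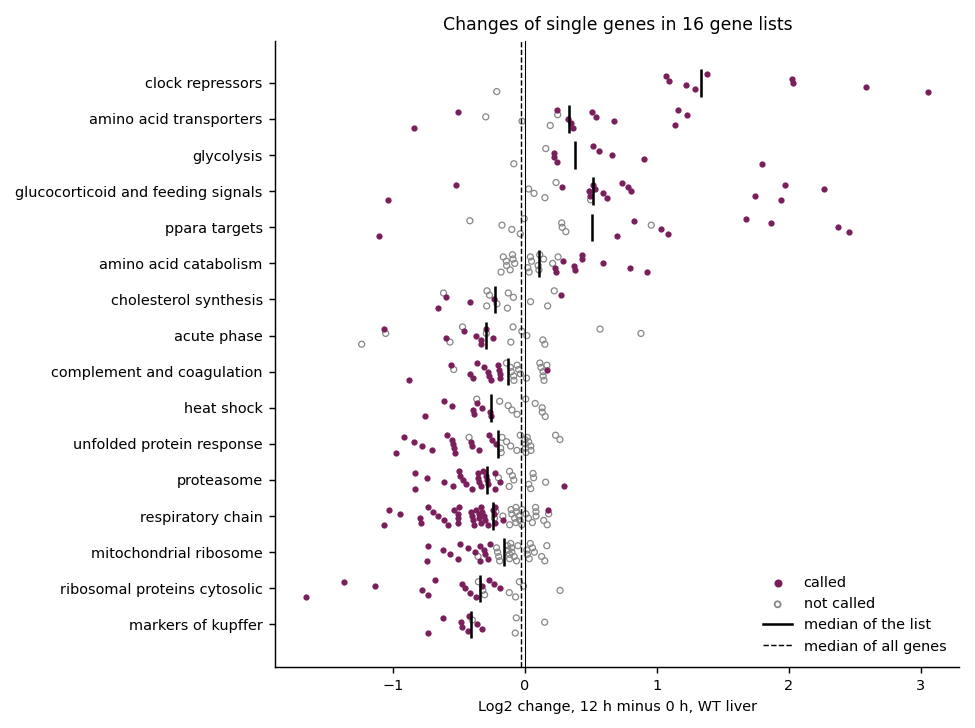
Log2 change from 0 h to 12 h in WT liver (horizontal axis) of each measured gene in 16 gene lists. Filled points were called, open points were not, the short bar is the median of the list and the dashed line the median of all genes (-0.03). All clock repressors but *Cry1* lie to the right of 0, up to 3.06, and most points of the proteasome, respiratory chain and ribosome lists lie to the left of 0.

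Genes of secreted plasma proteins gave more calls lower than higher. Of 21 acute phase genes 8 were lower and 0 higher. *Apcs*, or serum amyloid P, was at 11.81, 11.90, 11.96, 12.12 and 12.50 at 0 h and at 10.82, 10.89, 10.90, 10.92 and 11.42 at 12 h and fell by 1.07 (adjusted p = 0.014), without overlap. The fibrinogen genes *Fga*, *Fgg* and *Fgb* fell by 0.60, 0.46 and 0.34, while *Saa1* at -1.24 and *Lcn2* at 0.88 varied widely between mice and did not pass. In complement and coagulation 13 of 30 were lower and 1 higher (7 and 4 with each array centred), led by the mannose-binding lectin *Mbl1* at -0.88, *C9* at -0.56 and coagulation factor *F11* at -0.42. Of 11 plasma carriers 1 was higher and 2 lower, but with each array centred 2 were higher and 1 lower. *Serpina6*, the carrier of glucocorticoids, rose by 0.55. Of 17 iron genes 5 were higher and 3 lower (3 higher when any of mice 80, 111, 146 or 170 was left out). Among them the transferrin receptor *Tfrc* rose by 0.65 and *Hamp*, or hepcidin, at -0.45 did not pass. Of 18 interferon-stimulated genes 5 were lower and 0 higher, led by *Bst2*, which fell by 1.01. Their share of calls, 27.8%, was close to the 28.8% of all genes.

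Besides *Tubb2a*, the tubulin genes *Tuba4a*, *Tubb5* and *Tubb2b* fell by 0.91, 0.72 and 0.51, and of 10 tubulin genes 5 were lower and 0 higher. The tubulins share long stretches of sequence, and their probe sets may read one another. Of 16 actin and SRF target genes 4 were lower, such as cofilin *Cfl1* at -0.44, and *Actb* at -0.15 did not pass. Genes that restrain growth were called at close to the share of all genes, 30.8% beside 28.8%. The 4 of 13 called were higher, with *Tob2* at 0.78 and *Ccng1* at 0.35 beside *Wee1*. Of 23 proliferation genes 1 was higher, the ribonucleotide reductase subunit *Rrm2* at 1.03, and 3 lower, among them *Plk1* at -0.43, and only 1 was lower without mouse 78. In autophagy 8 of 27 were higher, including the mitophagy receptor *Bnip3* at 0.89 and the initiating kinase *Ulk1* at 0.45, and 5 lower, including the cargo receptor *Sqstm1* at -0.39 (3 lower without mouse 78).

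Markers of other cells of the liver moved in part with these results. Of 12 markers of Kupffer cells, the resident macrophages, 8 were lower at 12 h and 0 higher, with a median of -0.41 and a mean level of 9.40 to 9.70 over the mice of 0 h and 8.99 to 9.32 over those of 12 h. *Clec4f*, found on Kupffer cells, was at 10.52, 10.72, 10.76, 10.83 and 10.93 at 0 h and at 9.75, 9.81, 9.98, 10.18 and 10.35 at 12 h and fell by 0.74 (adjusted p = 8.7e-05), without overlap, and *Vsig4* fell by 0.62, while *Csf1r* at 0.15 did not pass. In KO liver the median of the list was -0.19. The part of these cells in the falls of complement, interferon and other immune genes was not tested. Of 12 endothelial markers 4 were higher, such as *Stab1* at 0.47, and 1 lower (2 higher without mouse 170). Of 12 stellate cell and fibroblast markers 2 were higher, *Reln* at 0.45 and *Lrat* at 0.43, and 1 lower. Of the 11 neutrophil and 12 lymphocyte markers 0 were called, and without mouse 167 3 neutrophil markers were lower and 1 higher. Those of bile duct, dendritic, red blood and platelet cells, pancreas, and mesothelium or gallbladder gave at most 1 call in each direction per list, and those of fat 0.

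Of the genes known to differ between male and female liver, 26.7% of the male-biased and 56.25% of the female-biased were called, beside 28.8% of all genes. Of 15 male-biased genes 4 were lower and 0 higher, *Elovl3* and the steroid dehydrogenase *Hsd3b5* at -1.12 among them, and 7 were lower without mouse 147 or without mouse 168. Of 16 female-biased genes 7 were higher and 2 lower (4 higher without mouse 146), with *Fmo2*, *Atp6v0d2* at 1.68 and *Nipal1* at 1.58. The sex-linked genes gave 0 calls. Pericentral genes had 4 of 15 higher and 1 lower, and periportal genes 2 of 12 higher and 3 lower (5 lower without mouse 168).

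**Figure D4:**
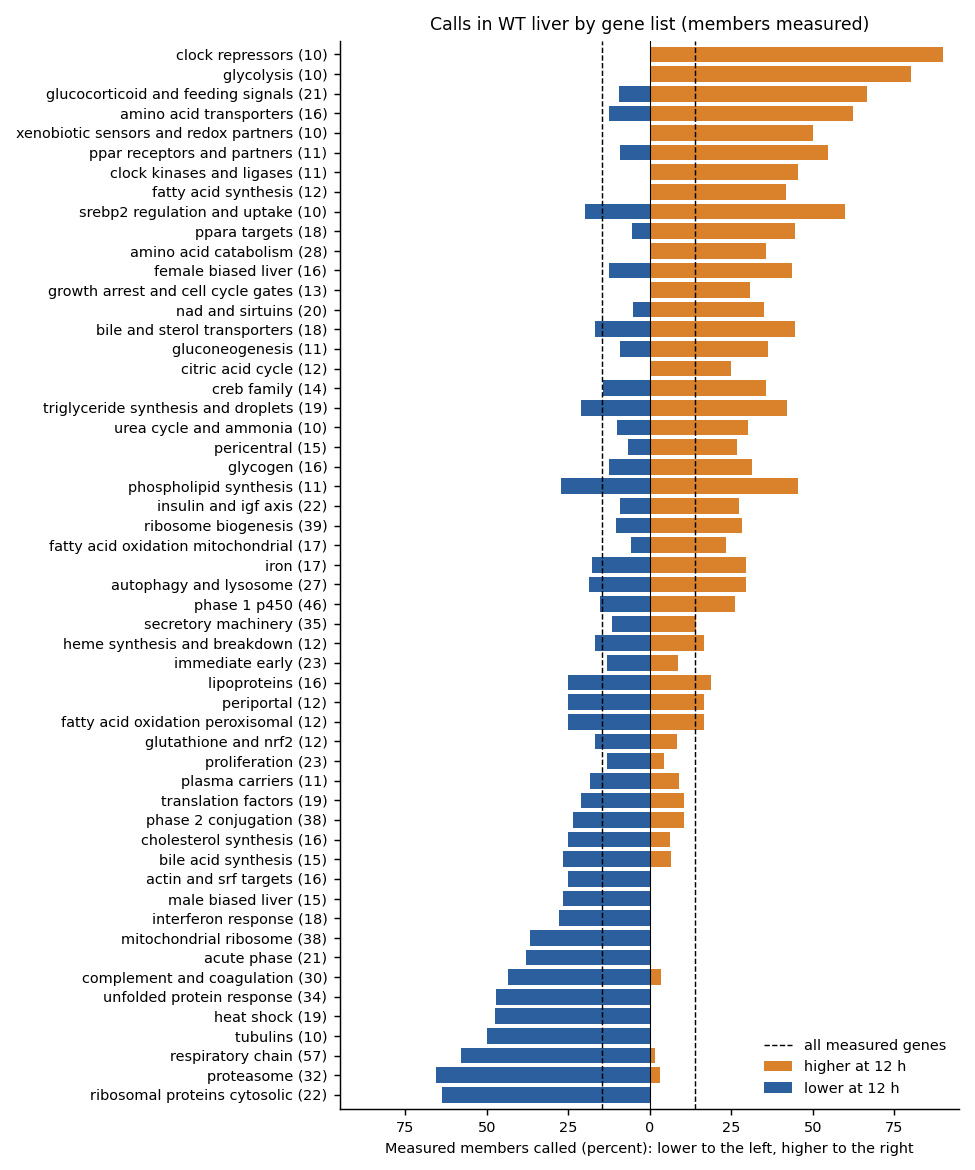
Share of measured members called higher (orange, to the right) or lower (blue, to the left) at 12 h in WT liver, in percent. Gene lists with at least 10 measured members are shown (number in brackets), without the lists of cell type markers. Dashed lines mark the shares among all measured genes, 14.0% higher and 14.7% lower. Clock repressors, glycolysis and glucocorticoid and feeding genes lead the rises, and cytosolic ribosomal proteins, the proteasome and the respiratory chain the falls.

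The KO livers, taken at the same times and in the same batches from other mice, gave a second set of changes. There 5211 probe sets (20.3%) were called between 12 h and 0 h. Of those called in WT, 96.6% of the higher and 95.4% of the lower had the same sign in KO liver, and the changes over all 25689 probe sets correlated with r = 0.795 as a description, since the batches are shared. Of the 208 probe sets called with a change of at least 1, 204 had the same sign and 184 were called in the same direction. Their own largest difference between batches at 0 h was exceeded by 206 of them. The same held for 92.4% of probe sets called higher, 93.7% of those called lower and 41.0% of all probe sets. Picking called and large changes favours this, so it does not separate time from batch. A difference between WT and KO in the change was called for 0 probe sets in limma (smallest adjusted p 0.48), with 1757 at an unadjusted p under 0.05. *Arntl* changed by -2.56 in KO liver, *Per3* by 1.91, *Dbp* by 2.99, *Lpin1* by 2.53, *Tubb2a* by -2.75 and *Hspa5* by -0.52. *Cyp4a14*, at 0.53 in KO liver against 2.37 in WT, did not differ between genotypes past the threshold either (adjusted p for the difference 0.64).

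**Figure D5:**
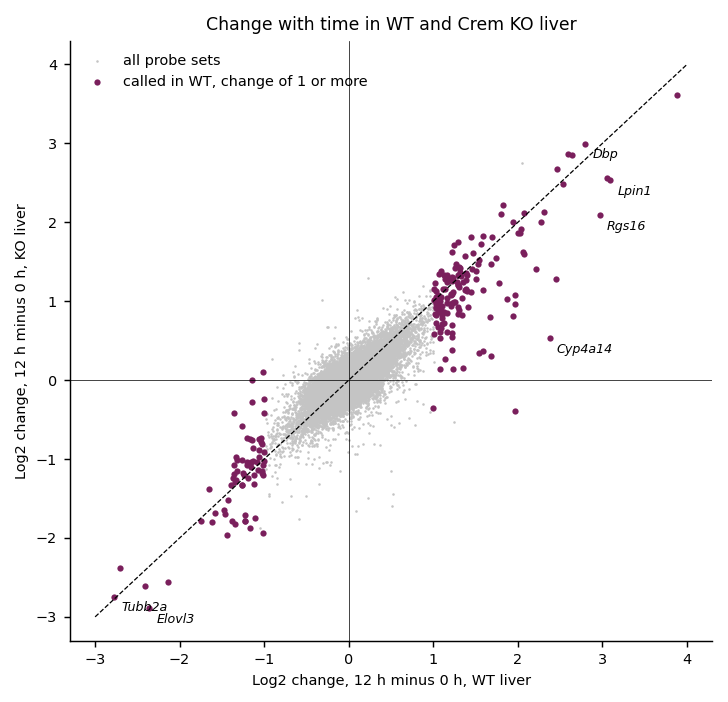
Log2 change from 0 h to 12 h in WT liver (horizontal axis) and in *Crem* KO liver (vertical axis). Grey points are all 25689 probe sets, purple points the 208 called in WT with a change of at least 1, and the dashed line marks equal changes. Of the purple points 204 have the same sign in both genotypes, and *Cyp4a14* lies below the line at 2.37 in WT and 0.53 in KO.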

How the data were processed

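Values were used as the authors deposited them, as log2 expression per probe set after RMA, which the submitters' processing notes name without a version. Which arrays were normalized together was not stated. Of 35557 probe sets, the 9868 without a value were left out and no other filter was applied. Gene names came from the platform annotation, joined to RefSeq's genes on GRCm38.p6, which matched 20696 probe sets and changed 0 symbols. They gave 1 gene for 20777 probe sets, several for 232 and none for 4680, and 564 of the 19661 genes had several probe sets, and lists used the brightest of these by its mean on the 20 arrays.

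Genotype and time in the labels gave the groups. All 20 arrays were fitted as 4 group means with limma 3.58.1 (lmFit and eBayes) in R 4.3.3, and probe sets were called at a Benjamini-Hochberg adjusted p under 0.05 over all 25689. One model shares its estimate of the spread over the 4 groups. Array medians were compared with an exact permutation test in scipy 1.17.1. The code was tested on simulated data. No gene list was tested as a set, and lists are described by counts and medians. There were 60 lists and 14 lists of cell type markers.

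The comparison, the lists and the rule for named genes were chosen with earlier results of these data known. The rule admits the 12 highest and 12 lowest changes called, the leading members of each list, up to 6 members called per list and direction, and all cell type markers. *Bhlhe40*, *Bhlhe41* and *Rora* were named after their values were seen. Promoters (250 bases before to 50 after a start) are RefSeq's. Alternatives were batch as a random block, only the WT arrays, only bright probe sets, quantile normalization, centring of each array, a prior that is robust and follows intensity, weights per array, and runs without single mice or without mice 80 and 170. Precision is limited by the number of arrays, and probe background could not be examined in summarized values.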

Additional observations from a re-analysis of the deposited data

Results flagged for a closer look

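In 8 of 198 groups of 5 values tested, 1 mouse stood apart from the other 4 of its group by the gap to its nearest neighbour relative to the whole range, where chance gives about 9.9. Mouse 80 at 0 h had an array median of 7.241 against 7.180 to 7.193 in the others, a mean level of the clock activators of 8.412 against 8.804 to 8.903, and a mean level of the sex-linked genes of 7.4515 against 8.040 to 8.104. Mouse 145 at 0 h had a mean level of the ketogenesis genes of 11.064 against 10.978 to 10.999. Mouse 146 at 0 h had a mean level of the markers of mesothelium and gallbladder of 7.549 against 7.7465 to 7.780. At 12 h, mouse 111 had a mean level of the urea cycle genes of 12.337 against 12.397 to 12.411, and mouse 169 a mean level of the adipose markers of 6.970 against 6.505 to 6.546. Mouse 170 at 12 h had a *Cyp4a14* level of 11.869 against 8.007 to 9.043.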

How the results depend on the processing

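The 7144 calls became 4769 to 7289 under the other settings and 5857 to 7140 when 1 array was left out. Leaving out 1 array gave 2892 to 3391 higher and 2915 to 3790 lower calls. Centring each array on its median gave 5294 higher and 1995 lower, and leaving out mice 80 and 170 together gave 2463 and 2306 (fewer samples). Calls for the difference between WT and KO were 0 in every setting run. Of 236 genes named in the text 210 were called, and 190 of these were called in every alternative that tested them. Of 4236 values of these genes under alternatives, 51 were no longer called and 26 newly called. The 8 that changed sign under a setting belong to 4 genes that were not called. *Alb* was at 0.048 with quantile normalization and 0.062 with centring, and *Ttr* at 0.016 with centring. *Eif2s3y* was at -0.017 with array weights and -0.093 without mice 80 and 170, with -0.13 to 0.12 leaving out 1 array. *G6pc* was at -0.048 without mice 80 and 170 and at -0.034 to 0.23 leaving out 1 array. The cause of these sign changes was not tested. The medians of 19 of 74 lists changed sign in 1 or more settings, and none of these medians is printed in the text. Counts of 1 or 2 called members of a list moved by up to 2 when 1 mouse was left out. No paired analysis was possible because no mouse number occurs in both groups. Time and batch cannot be told apart in any of these settings.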
